A study of Mus musculus with 12 samples.

Results

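The nuclear genes for the subunits of respiratory complexes II to V were followed in colon adenoma cells sorted from mice by Mex3a and Lgr5 status. The members were all genes on the array with 1 platform symbol that begins with Uqcr, Atp5 or Cox4 to Cox8, or is Cyc1 or Sdha to Sdhd. This gave 46 of 17097 genes: 4 of complex II, 8 of complex III, 17 of complex IV and 17 of complex V (the ATP synthase). Each gene was read on its brightest probe set, and 45 of the 46 passed the filter on low signals. The exception was Cox7b2, the testis form of a complex IV subunit, whose log2 signals lay between 2.89 and 3.25 on all 12 arrays, under the pass level of 4.40.

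The study measured RNA on an Affymetrix mouse array in 4 populations: Mex3a+ cells with Lgr5 (Mex3a+ Lgr5+) and without it (Mex3a+ Lgr5-), and Mex3a- cells with it (Mex3a- Lgr5+) and without it (Mex3a- Lgr5-), each with 1 array from each of 3 mice (MKL347, MKL358 and MKL367). Lgr5 is a receptor of crypt base stem cells, and Mex3a is a protein that binds RNA. All mice carry the label ki/+, which the labels do not explain, and no age or treatment is given. Each array is a pool of several colon adenomas of that mouse, with 500 sorted cells per pool for MKL358 and 2000 for the others, and 25 ng of RNA was amplified before labelling.

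The respiratory chain of the inner mitochondrial membrane passes electrons from food to oxygen. Complex II (succinate dehydrogenase) takes electrons from succinate and is also an enzyme of the citric acid cycle. Complex III hands electrons from ubiquinol to cytochrome c, complex IV (cytochrome c oxidase) hands them on to oxygen, and complex V uses the proton gradient so formed to make ATP. All subunits of complex II are nuclear, whereas complexes III, IV and V also hold subunits encoded by mitochondrial DNA, which are not among the members. In normal colon, cells that leave the crypt base and become colonocytes rely on the oxidation of butyrate.

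The sorted cells carried the markers of epithelium, with a mean log2 signal over 8 epithelial genes of 10.4 to 11.1 on every array. Mex3a was higher in Mex3a+ than in Mex3a- cells by 0.69 on the log2 scale (SE 0.12, 6 arrays against 6, limma adjusted p = 0.00162). Array medians ranged from 4.86 to 4.92. The 4 arrays of a mouse came from the same animal, and their deviations from the population means correlated at 0.349 to 0.694 across genes. Differences are given on the log2 scale, and adjusted p-values are limma's, over 12595 genes. A gene is called where its adjusted p is under 0.05, and the block named below is a fit with a term for each mouse.

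In Mex3a+ cells, 33 of the 45 tested subunit genes were lower than in Mex3a- cells, 1 was higher (Cox6b2) and 11 did not pass the test. Of all 12595 genes, 17.3% were called lower and 9.91% higher in the same comparison. The median difference of the 45 members was -0.29, against -0.013 over all genes tested. With the mouse as a block, 38 members were lower and 1 higher, against 25.3% and 15.9% of all genes. In 28 members all 6 Mex3a+ arrays lay below all 6 Mex3a- arrays, a pattern shown by 9.02% of the genes tested. Of the members, 39 were lower in each of the 3 mice, and the share of all genes with that pattern was not counted. The falls were of limited size: the largest, of Cox7a1, was 1.91-fold. In these bulk pools, fewer cells of a type and less RNA per cell cannot be told apart.

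**Figure D1:**
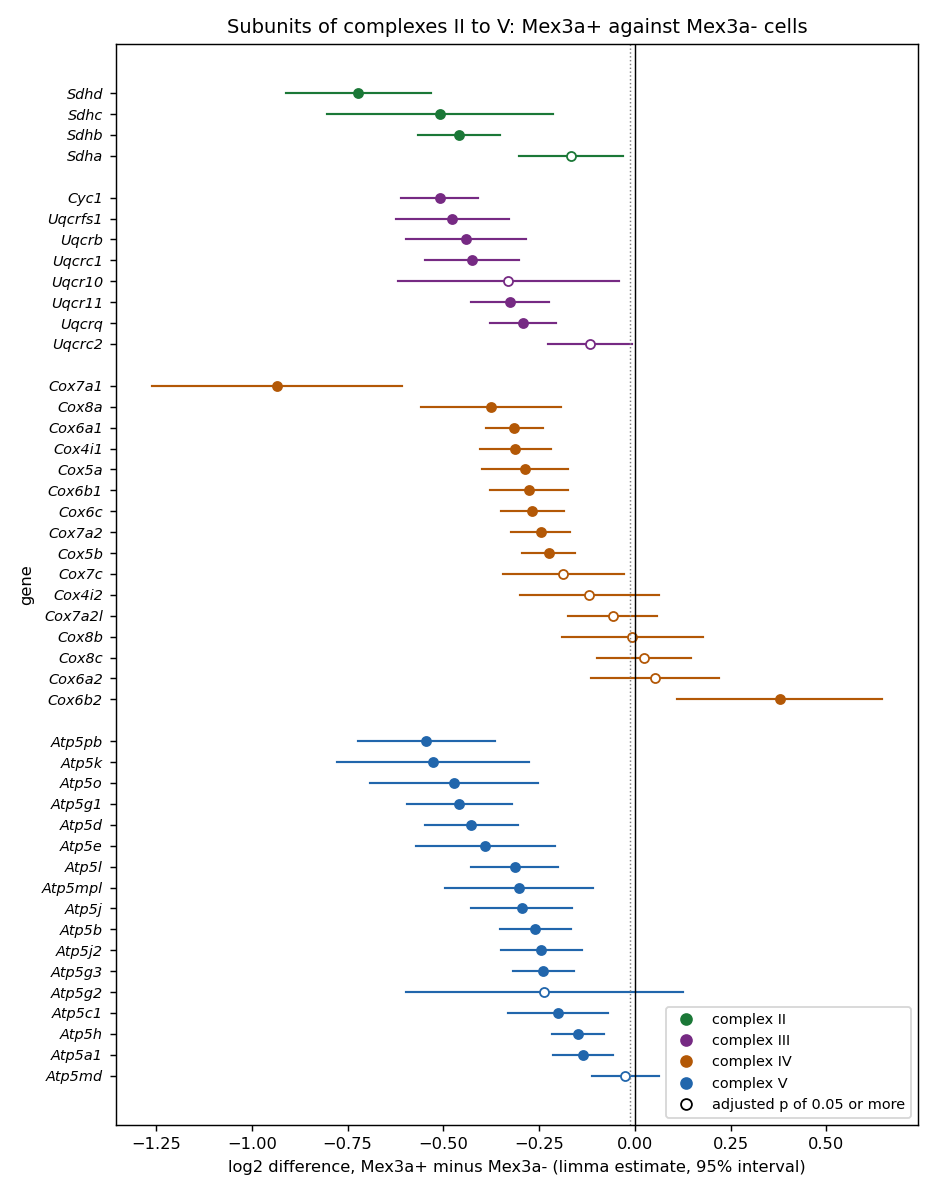
Log2 difference of Mex3a+ minus Mex3a- cells for each of the 45 tested subunit genes (points, limma estimate over 6 arrays against 6; bars, 95% interval), grouped by complex; the dotted line is the median of all genes tested. Filled points have an adjusted p under 0.05: 33 lie below 0 and 1, Cox6b2, lies above it.

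The members fell in every complex. By complex, 3 of 4 were lower in complex II (median -0.48), 6 of 8 in complex III (-0.38), 9 of 16 in complex IV (-0.24) and 15 of 17 in complex V (-0.30). With the mouse as a block, 4, 8, 10 and 16 were lower. The medians of the complexes were not tested against each other. On each array, the median deviation of the members from their own 12-array means ran from -0.18 to -0.070 on the 6 Mex3a+ arrays and from 0.067 to 0.22 on the 6 Mex3a- arrays, so the arrays did not overlap. The median difference was -0.23 in mouse MKL347, -0.32 in MKL358 and -0.32 in MKL367. Across the 45 members the signed difference had little relation to signal level (Pearson's r -0.087 and Spearman's rho 0.20, across genes on the same arrays). The 45 include the dim forms Cox4i2, Cox6a2, Cox6b2, Cox8b and Cox8c, whose differences ran from -0.12 to 0.38. The largest falls, of Cox7a1 (-0.93) and Sdhd (-0.72), were at mean signals of 7.11 and 6.05. The brightest member, Atp5a1 (11.44), differed by -0.13. The relation without the dim forms was not tested.

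**Figure D2:**
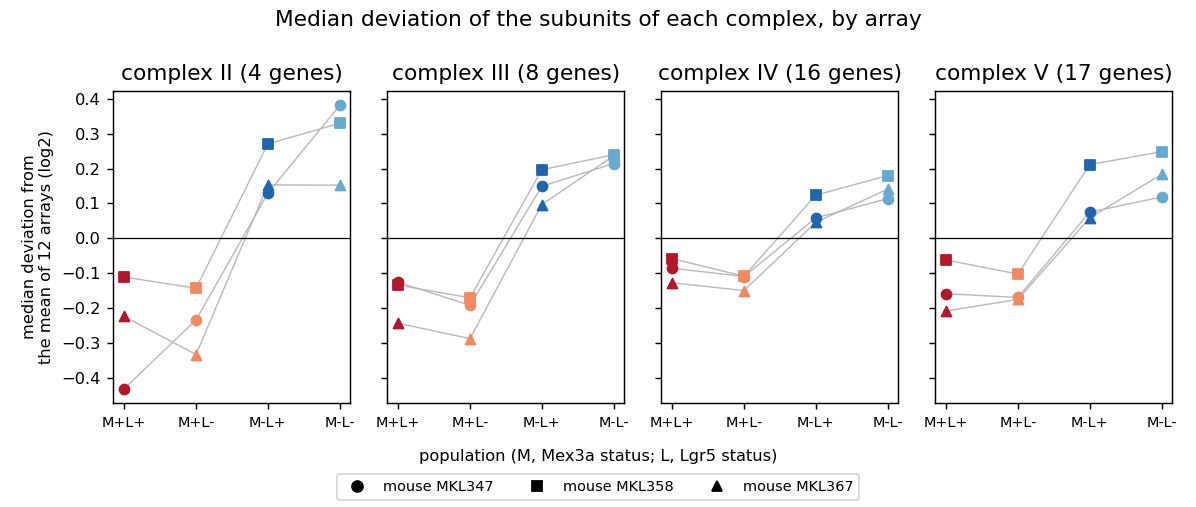
Median deviation of the subunits of each complex from their own mean over 12 arrays (log2), by array; points are arrays, lines join the arrays of a mouse, and M and L stand for Mex3a and Lgr5. In all 4 complexes every Mex3a+ array lies below 0 and every Mex3a- array above it.

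Promoters were compared because the members moved together. The RefSeq promoter table (GRCm38.p6) held 34 of the 46 members, with 37 start sites, each covered from 250 bases before the start to 50 after it. Both strands were searched for the core motifs of NRF1 (GCGCANGCG) and GABPA (CCGGAAG), regulators known for nuclear mitochondrial genes, and of ERRA (AAGGTCA), an orphan receptor of the same programme. Upstream sequences of 250 bases are shown for a member of each complex that fell, in which motif matches are in capitals, and for Cox7a1, the member with the largest fall, which holds no match. Each is written 5′ to 3′ on the strand of the gene.
Sdhd (chr9:50603850-50604099, minus strand): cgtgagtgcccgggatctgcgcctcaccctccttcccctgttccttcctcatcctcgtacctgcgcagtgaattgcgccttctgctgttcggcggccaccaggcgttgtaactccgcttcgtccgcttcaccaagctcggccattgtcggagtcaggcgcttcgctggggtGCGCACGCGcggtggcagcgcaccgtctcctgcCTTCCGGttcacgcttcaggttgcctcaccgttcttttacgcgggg
Uqcr11 (chr10:80406822-80407071, minus strand): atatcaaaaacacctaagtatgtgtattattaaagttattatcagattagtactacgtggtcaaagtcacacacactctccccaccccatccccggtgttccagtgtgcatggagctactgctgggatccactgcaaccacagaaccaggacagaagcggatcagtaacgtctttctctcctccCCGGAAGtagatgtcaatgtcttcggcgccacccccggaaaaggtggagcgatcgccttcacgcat
Cox6a1 (chr5:115348959-115349208, minus strand): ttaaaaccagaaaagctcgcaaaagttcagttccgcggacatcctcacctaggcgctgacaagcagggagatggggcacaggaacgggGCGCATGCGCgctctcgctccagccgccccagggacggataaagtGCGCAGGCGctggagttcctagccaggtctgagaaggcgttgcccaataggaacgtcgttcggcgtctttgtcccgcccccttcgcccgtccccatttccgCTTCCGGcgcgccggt
Atp5k (chr5:108434400-108434649, minus strand): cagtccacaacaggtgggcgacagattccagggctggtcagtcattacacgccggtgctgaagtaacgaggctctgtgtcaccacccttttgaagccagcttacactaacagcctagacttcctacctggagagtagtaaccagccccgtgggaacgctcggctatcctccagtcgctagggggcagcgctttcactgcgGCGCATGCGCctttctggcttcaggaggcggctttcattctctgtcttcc
Cox7a1 (chr7:30183921-30184170, plus strand): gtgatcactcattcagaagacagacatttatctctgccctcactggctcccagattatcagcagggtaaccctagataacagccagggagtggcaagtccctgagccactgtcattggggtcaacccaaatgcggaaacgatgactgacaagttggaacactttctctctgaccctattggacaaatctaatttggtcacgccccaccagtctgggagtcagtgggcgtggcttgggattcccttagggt

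The NRF1 motif was found in 12 of the 34 members (35.3%), against 7.0% of 26991 other genes, and in 6.25% of all 32851 promoters. The GABPA motif was found in 12 members (35.3%), against 9.9% of other genes and 8.86% of all promoters. The ERRA motif was found in 5 (14.7%), against 5.37% of other genes and 4.72% of all promoters. Base composition was not matched between members and other genes, and the NRF1 motif can match both strands at nearly the same place, as in Atp5k and Cox6a1. Matches near or past the start, as for NRF1 in Uqcr11 and GABPA in Atp5k, lie outside the bases shown. No motif was found in 16 members. The promoters shown above, apart from that of Cox7a1, all hold a match and so do not represent all members. Among members tested, the median Mex3a difference was -0.31 in 12 genes with an NRF1 match and -0.29 in 21 without, -0.32 in 12 genes with a GABPA match and -0.25 in 21 without, and -0.39 in 5 genes with an ERRA match and -0.28 in 28 without. A match is a description of the sequence and not of binding.

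In complex II, the iron-sulphur subunit and both membrane anchors were lower in Mex3a+ cells. Sdhb, which carries the iron-sulphur clusters, had log2 signals of 9.40, 9.57 and 9.54 in Mex3a+ Lgr5+ cells (mice MKL347, MKL358 and MKL367), 9.55, 9.44 and 9.44 in Mex3a+ Lgr5-, 9.88, 9.94 and 9.87 in Mex3a- Lgr5+ and 10.01, 9.96 and 10.02 in Mex3a- Lgr5- cells. No Mex3a+ array reached the lowest Mex3a- array. The difference was -0.46 (SE 0.049, adjusted p = 0.000113). Sdhd, an anchor that helps bind ubiquinone, had 5.45, 5.75 and 5.78 in Mex3a+ Lgr5+ cells, 5.70, 5.90 and 5.57 in Mex3a+ Lgr5-, 6.18, 6.38 and 6.36 in Mex3a- Lgr5+ and 6.65, 6.47 and 6.45 in Mex3a- Lgr5- cells. Its groups did not overlap either, and the difference was -0.72 (SE 0.087, adjusted p = 0.000216), or 1.65-fold lower. The promoter of Sdhd, shown above, holds an NRF1 and a GABPA match. Sdhc, the other anchor, differed by -0.51 (adjusted p = 0.0156), with overlapping arrays. Sdha, the flavoprotein that binds succinate, ran from 9.93 to 10.08 (median 9.98) on Mex3a+ arrays and from 10.00 to 10.32 (median 10.18) on Mex3a- arrays. Its difference of -0.17 (SE 0.062) did not pass (adjusted p = 0.0648) and passed with the mouse as a block (adjusted p = 0.0101).

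In complex III, both catalytic subunits encoded in the nucleus were lower, and so were 4 structural ones. Cyc1, the cytochrome that passes electrons to cytochrome c, had the smallest p of all members. Its log2 signals were 9.61, 9.70 and 9.66 in Mex3a+ Lgr5+ cells, 9.75, 9.63 and 9.64 in Mex3a+ Lgr5-, 10.10, 10.15 and 10.12 in Mex3a- Lgr5+ and 10.29, 10.16 and 10.23 in Mex3a- Lgr5- cells. The gap between the highest Mex3a+ and the lowest Mex3a- array exceeded the range within either set. The difference was -0.51 (SE 0.046, adjusted p = 3.85e-05), or 1.42-fold lower. Uqcrfs1, the Rieske iron-sulphur protein, differed by -0.48 (adjusted p = 0.000498).

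Among the structural subunits of complex III, the core protein Uqcrc1 had 9.50, 9.64 and 9.40 in Mex3a+ Lgr5+ cells, 9.49, 9.52 and 9.41 in Mex3a+ Lgr5-, 9.94, 10.00 and 9.83 in Mex3a- Lgr5+ and 9.93, 9.95 and 9.87 in Mex3a- Lgr5- cells. Its difference was -0.42 (SE 0.056, adjusted p = 0.000346), with no overlap. The small subunits Uqcrb (-0.44), Uqcr11 (-0.33) and Uqcrq (-0.29) were lower, with adjusted p-values of 0.00105, 0.000522 and 0.000378. Averaged over all its probe sets, Uqcrq gave -0.10 and did not pass (adjusted p = 0.255). The second core protein, Uqcrc2, ran from 10.90 to 11.09 (median 11.03) on Mex3a+ arrays and from 11.04 to 11.22 (median 11.11) on Mex3a- arrays. It did not pass (-0.12, SE 0.050, adjusted p = 0.107; block 0.00979), and a dimmer probe set of the gene gave -0.34 (adjusted p = 0.0142 over probe sets). Uqcr10, a small subunit, ran from 9.37 to 10.00 (median 9.62) on Mex3a+ arrays and from 9.74 to 10.34 (median 9.89) on Mex3a- arrays. It did not pass either (-0.33, SE 0.13, adjusted p = 0.0859; block 0.000440), whereas its 2 dimmer probe sets gave -0.65 (adjusted p = 0.00305) and -0.40 (adjusted p = 0.0337).

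**Figure D3:**
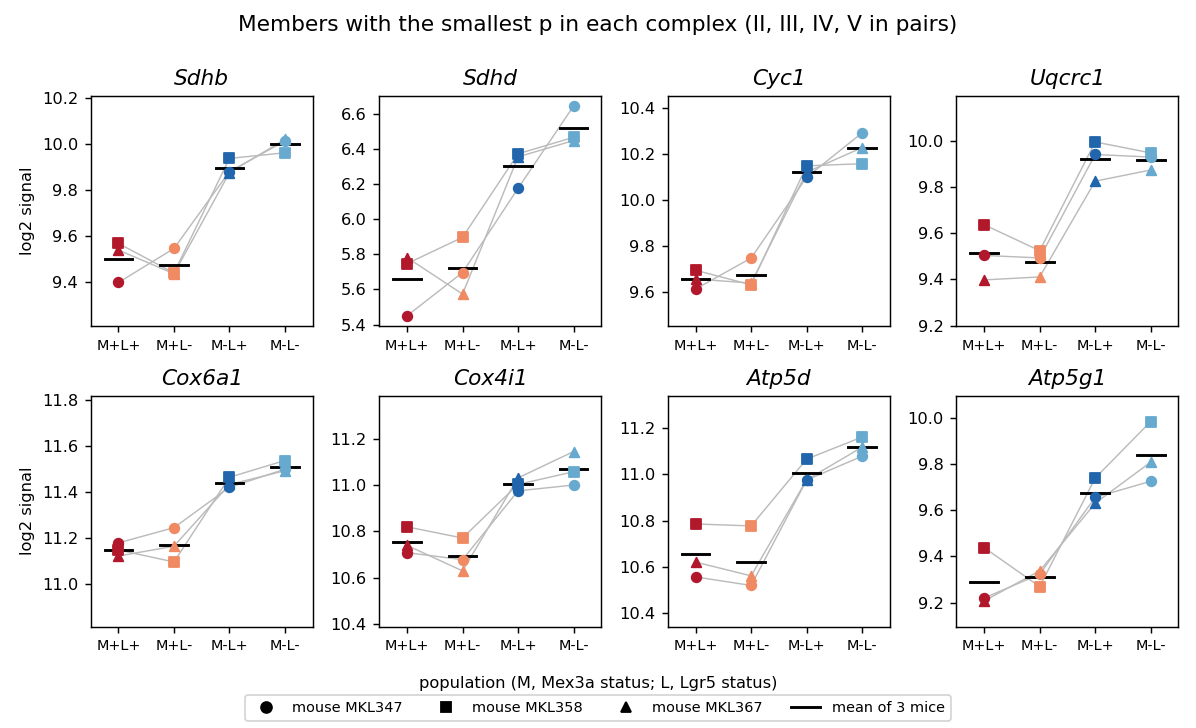
Log2 signal on each of the 12 arrays for the members with the 2 smallest p-values in each complex; points are arrays (shape by mouse), lines join the arrays of a mouse, and bars are means of 3 mice. In all 8 genes the 6 Mex3a+ arrays lie below the 6 Mex3a- arrays.

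In complex IV, the subunits used in most tissues were lower in Mex3a+ cells, while 4 of the 6 tested forms restricted to muscle, testis or lung did not pass. Cox4i1, a regulatory subunit that binds ATP, had 10.71, 10.82 and 10.74 in Mex3a+ Lgr5+ cells, 10.68, 10.77 and 10.63 in Mex3a+ Lgr5-, 10.98, 11.00 and 11.03 in Mex3a- Lgr5+ and 11.00, 11.06 and 11.15 in Mex3a- Lgr5- cells. The difference was -0.31 (SE 0.042, adjusted p = 0.000398). Cox6a1, a peripheral subunit whose promoter above holds NRF1 and GABPA matches, had 11.18, 11.15 and 11.12 in Mex3a+ Lgr5+ cells, 11.25, 11.10 and 11.17 in Mex3a+ Lgr5-, 11.42, 11.46 and 11.43 in Mex3a- Lgr5+ and 11.50, 11.54 and 11.49 in Mex3a- Lgr5- cells. The difference was -0.31 (SE 0.034, adjusted p = 0.000119). Neither gene had overlapping Mex3a+ and Mex3a- arrays.

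The other widespread subunits of complex IV were lower as well, apart from Cox7c and Cox7a2l, which did not pass. Cox8a differed by -0.37 (adjusted p = 0.00620), Cox5a by -0.29 (0.00178), Cox6b1 by -0.28 (0.00136), Cox6c by -0.27 (0.000503), Cox7a2 by -0.25 (0.000546) and Cox5b by -0.23 (0.000453). Of these, the arrays overlapped for Cox8a alone. Cox7c ran from 9.21 to 9.52 (median 9.33) on Mex3a+ arrays and from 9.43 to 9.69 (median 9.52) on Mex3a- arrays, and did not pass (-0.19, SE 0.072, adjusted p = 0.0761; block 0.00318). Cox7a2l, which joins complexes III and IV into supercomplexes, ran from 10.59 to 10.87 (median 10.66) on Mex3a+ arrays and from 10.65 to 10.84 (median 10.73) on Mex3a- arrays. It did not pass (-0.058, SE 0.053, 95% interval -0.17 to 0.058, adjusted p = 0.453), and its sign turned under further quantile normalization (0.030).

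Cox7a1 and Cox6b2 stood apart among the tissue-restricted forms, and in opposite directions. Cox7a1, the form of heart and skeletal muscle, had 6.51, 7.03 and 6.39 in Mex3a+ Lgr5+ cells, 6.39, 6.98 and 6.54 in Mex3a+ Lgr5-, 7.42, 7.64 and 7.06 in Mex3a- Lgr5+ and 7.60, 8.02 and 7.71 in Mex3a- Lgr5- cells. Mouse MKL358 was highest in each population. The difference of -0.93 (SE 0.15, adjusted p = 0.000939) was the largest fall of any member. Cox6b2, the testis form of Cox6b1, had 5.57, 6.03 and 5.52 in Mex3a+ Lgr5+ cells, 5.47, 5.81 and 5.45 in Mex3a+ Lgr5-, 5.22, 5.67 and 5.29 in Mex3a- Lgr5+ and 4.92, 5.33 and 5.16 in Mex3a- Lgr5- cells. Within each mouse both Mex3a+ arrays were above both Mex3a- arrays, but across mice the arrays overlapped. The rise was 0.38 (SE 0.12, adjusted p = 0.0387; block 0.000522), or 1.30-fold.

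The call of Cox6b2 depended on the processing and on single libraries. Its adjusted p was 0.0594 after quantile normalization and 0.0527 after median centring, with differences of 0.35 and 0.34. It was 0.217 without mouse MKL347 and 0.150 without MKL367. Leaving out any of 7 single arrays gave adjusted p-values from 0.0515 to 0.0937: MKL358 of Mex3a+ Lgr5+, MKL358 and MKL367 of Mex3a+ Lgr5-, and MKL347 and MKL367 of both Mex3a- populations. All 7 of these settings kept the rise, with differences of 0.30 to 0.41.

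The remaining tissue-restricted forms had low signals and did not pass. Cox6a2, a striated muscle form, ran from 5.80 to 6.01 (median 5.89) on Mex3a+ arrays and from 5.71 to 6.11 (median 5.79) on Mex3a- arrays (0.053, SE 0.077, adjusted p = 0.659). Cox8b, a striated muscle form, ran from 5.84 to 6.16 (median 6.01) on Mex3a+ arrays and from 5.80 to 6.24 (median 6.01) on Mex3a- arrays (-0.0071, SE 0.084, adjusted p = 0.964). Cox8c, a testis form, ran from 5.92 to 6.01 (median 5.94) on Mex3a+ arrays and from 5.86 to 5.99 (median 5.92) on Mex3a- arrays (0.023, SE 0.056, adjusted p = 0.797). Cox4i2, the form of lung and of low oxygen, ran from 5.20 to 5.52 (median 5.38) on Mex3a+ arrays and from 5.39 to 5.77 (median 5.42) on Mex3a- arrays (-0.12, SE 0.083, adjusted p = 0.321). The 95% intervals of these differences reached from -0.30 at the lowest to 0.22 at the highest. The markers of striated muscle gave 0 of 7 calls (1 with the mouse as a block, Myl1, -0.37, adjusted p = 0.0345), with a mean log2 signal of 4.79 to 5.15 on Mex3a+ arrays and 4.88 to 5.30 on Mex3a- arrays. Tnnt3 and Myh2 were under the pass level on all 12 arrays.

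**Figure D4:**
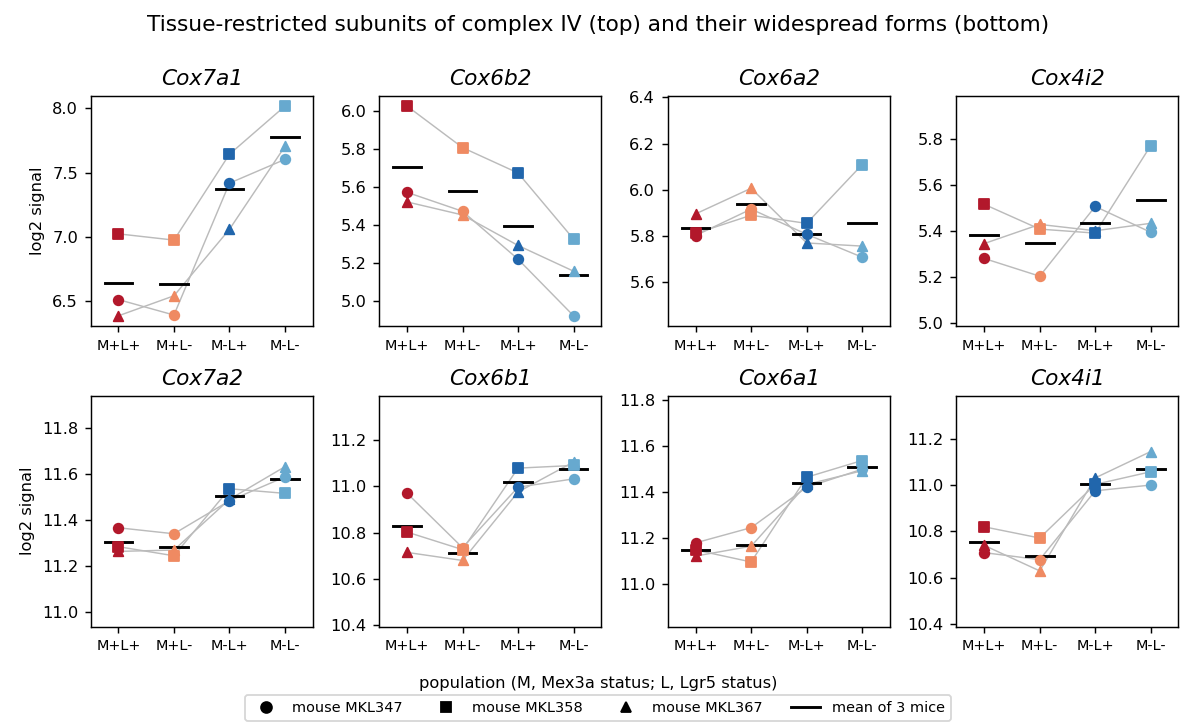
Log2 signal on each array for 4 tissue-restricted complex IV subunits (top) and their widespread forms (bottom); points are arrays (shape by mouse), lines join the arrays of a mouse, and bars are means of 3 mice. Cox7a1 is lower and Cox6b2 higher in Mex3a+ cells, Cox6a2 and Cox4i2 overlap, and all 4 widespread forms are lower.

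In complex V, subunits of the catalytic head, the stalks and the membrane ring were lower in Mex3a+ cells. Atp5d, the delta subunit of the central stalk, had 10.56, 10.79 and 10.62 in Mex3a+ Lgr5+ cells, 10.52, 10.78 and 10.56 in Mex3a+ Lgr5-, 10.98, 11.07 and 10.98 in Mex3a- Lgr5+ and 11.08, 11.16 and 11.12 in Mex3a- Lgr5- cells. No array of one status reached the other. The difference was -0.43 (SE 0.056, adjusted p = 0.000330). In the rest of the head and central stalk, Atp5e (epsilon) differed by -0.39 (adjusted p = 0.00469), Atp5b (the catalytic beta subunit) by -0.26 (0.00114), Atp5c1 (gamma) by -0.20 (0.0263) and Atp5a1 (alpha) by -0.13 (0.0158).

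The proton-driven ring of complex V is built from a protein that 3 genes encode with the same mature sequence. Atp5g1 had 9.22, 9.44 and 9.21 in Mex3a+ Lgr5+ cells, 9.32, 9.27 and 9.34 in Mex3a+ Lgr5-, 9.66, 9.74 and 9.63 in Mex3a- Lgr5+ and 9.73, 9.98 and 9.81 in Mex3a- Lgr5- cells. Its groups did not overlap, and its difference was -0.46 (SE 0.063, adjusted p = 0.000432). Atp5g3 differed by -0.24 (adjusted p = 0.000732), also without overlap. Atp5g2 ran from 8.94 to 9.47 (median 8.97) on Mex3a+ arrays and from 8.97 to 9.80 (median 9.15) on Mex3a- arrays, and did not pass (-0.24, SE 0.17, adjusted p = 0.322; block 0.0160).

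The outer stalk and the membrane subunits of complex V also fell, apart from Atp5md. In the outer stalk, Atp5pb (b) differed by -0.54 (adjusted p = 0.000693), Atp5o, which joins stalk and head, by -0.47 (0.00468), Atp5j by -0.30 (0.00377) and Atp5h (d) by -0.15 (0.00403). Among the membrane subunits, Atp5k (e), which helps pair the enzyme into dimers and whose promoter is shown above, differed by -0.53 (0.00549), Atp5l (g) by -0.31 (0.00111), Atp5mpl by -0.30 (0.0245) and Atp5j2 (f) by -0.24 (0.00332). Atp5md, a small protein of the dimer interface, ran from 11.04 to 11.22 (median 11.07) on Mex3a+ arrays and from 11.07 to 11.19 (median 11.11) on Mex3a- arrays. It did not pass (-0.025, SE 0.040, 95% interval -0.11 to 0.063, adjusted p = 0.692), and its sign turned under quantile normalization (0.034).

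**Figure D5:**
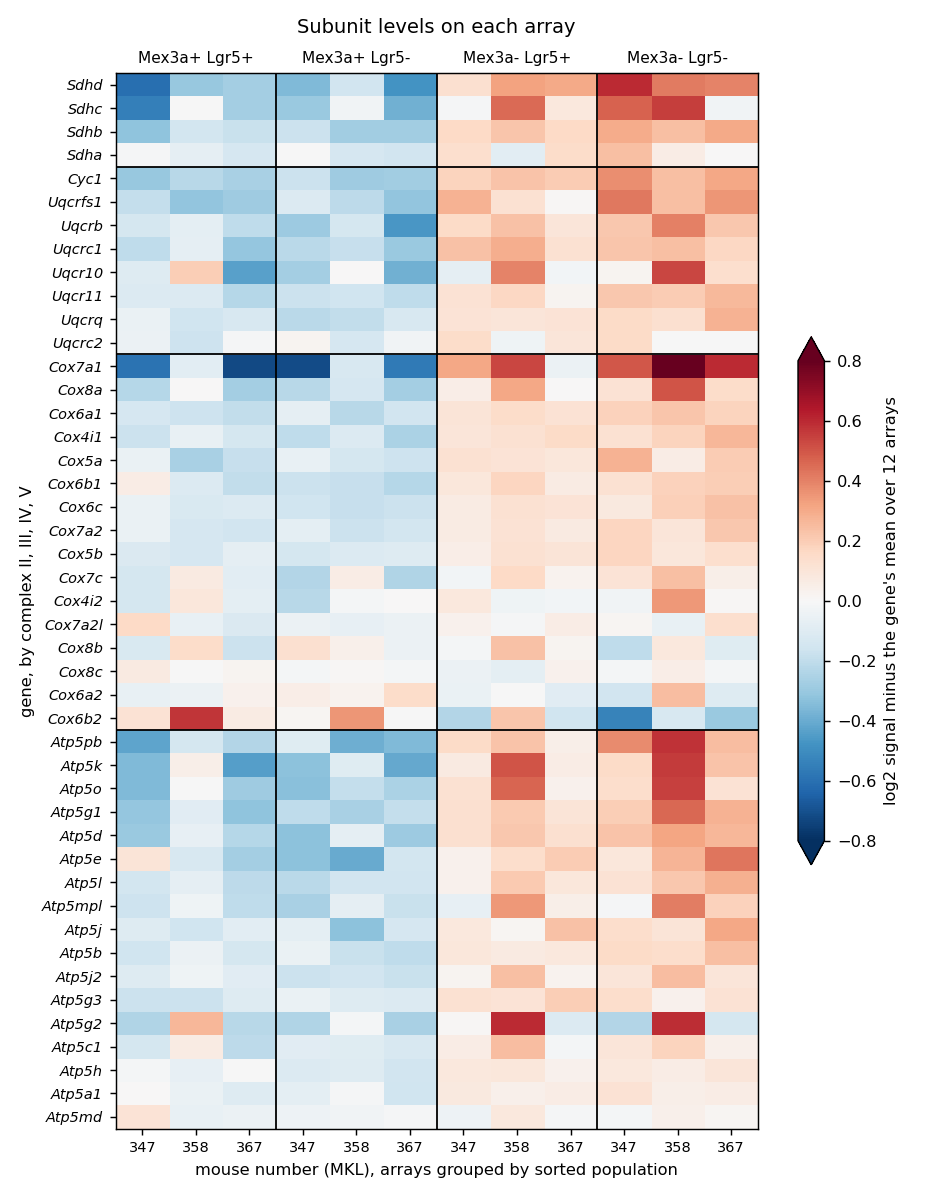
Deviation of each of the 45 tested members from its own mean over 12 arrays (log2, colour), with genes in rows by complex and arrays in columns by population. The Mex3a+ columns are mostly negative and the Mex3a- columns mostly positive, and Cox6b2 runs the other way.

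The number of calls depended on the mice in the fit without a block. Over all genes, calls went from 2174 lower and 1248 higher to 734 and 300 without MKL347. Without MKL367 they were 970 and 576. Without mouse MKL347, 11 of the 34 calls were lost, with adjusted p-values from 0.0525 to 0.217 (Sdhc, Cox6b2, Cox8a, Atp5a1, Atp5c1, Atp5h, Atp5j, Atp5j2, Atp5k, Atp5mpl and Atp5o). Without MKL367, 12 were lost, with adjusted p-values from 0.0548 to 0.212 (Sdhc, Cox5a, Cox6b2, Cox8a, Atp5a1, Atp5b, Atp5c1, Atp5e, Atp5h, Atp5j, Atp5k and Atp5mpl). In the block fit, 1 mouse fewer left 36 or 37 members called, and of the 34 calls only that of Atp5a1 was lost, without MKL367 (adjusted p = 0.0796). Beside Cox6b2, leaving out 1 array ended calls of 2 members only, Atp5c1 and Atp5mpl, with adjusted p-values from 0.0510 to 0.0668. Further quantile normalization ended the calls of Atp5a1 (adjusted p = 0.107), Atp5c1 (0.231), Atp5h (0.0912) and Atp5mpl (0.174), and a fit without the intensity trend those of Atp5a1 (0.0851) and Atp5c1 (0.0503).

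Probe sets of the same gene mostly moved the same way. The 46 members had 74 probe sets, and 19 members had several. Of the 28 probe sets not used for the gene, 25 had the sign of the brightest one, and 16 were called with that sign. Those of opposite sign, in Atp5g1, Cox5b and Uqcrq, had mean signals of 3.61, 3.72 and 4.10. They did not pass the filter and were not tested, so no call of opposite sign could arise. Among 24 dimmer probe sets with a mean above the pass level, 13 showed a larger fall than the brightest. In Atp5h the dimmer set gave -0.32 and the brightest -0.15, and in Atp5j2 the values were -0.50 and -0.24. The cause of these gaps was not tested. Probe sets whose names mark possible matches to other transcripts served 5 members (s_at) and 4 members (x_at, Sdhd among them), and their signals are less certain for the gene.

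Mex3a status was also compared within each Lgr5 state, with 3 arrays against 3. Among Lgr5+ cells, 16 members were lower in Mex3a+ cells, 0 higher and 29 did not pass, with 4.80% of all genes called lower. With the mouse as a block, 31 were lower and 1 higher, against 13.2% of all genes lower. The median difference was -0.23 (all genes -0.0078), and 28 members had all 3 Mex3a+ Lgr5+ arrays below all 3 Mex3a- Lgr5+ arrays, as did 15.9% of all genes. The 8 smallest p-values belonged to Cyc1 (-0.47, adjusted p = 0.00297), Cox6a1 (-0.29, 0.00721), Atp5g3 (-0.29, 0.00926), Sdhb (-0.40, 0.00926), Sdhd (-0.64, 0.0133), Uqcrc1 (-0.41, 0.0140), Cox5b (-0.20, 0.0222) and Atp5d (-0.35, 0.0225). By complex, 2, 5, 6 and 3 members of complexes II, III, IV and V were lower. No member was called without mouse MKL347 or without MKL367, although 23 and 19 were in the block fit. Over all genes, calls without the block went from 605 lower and 404 higher to 18 and 1 without MKL347. Without MKL367 they were 127 and 56. Leaving out 1 array left 4 or 5 called for 4 arrays: MKL347 and MKL367 of Mex3a+ Lgr5+, and MKL347 and MKL358 of Mex3a- Lgr5+. Over all genes, these 4 fits called 122 to 161 lower and 78 to 99 higher.

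Among Lgr5- cells, 30 members were lower in Mex3a+ cells, 0 higher and 15 did not pass, against 11.7% of all genes called lower. With the block 36 were lower and 1 higher, against 21.1% of all genes lower. The median difference was -0.36 (all genes -0.025). The 8 smallest p-values were those of Cyc1 (-0.55, adjusted p = 0.000494), Sdhb (-0.52, 0.00103), Cox6a1 (-0.34, 0.00143), Uqcrq (-0.36, 0.00200), Sdhd (-0.80, 0.00210), Cox6c (-0.34, 0.00222), Atp5d (-0.50, 0.00231) and Cox4i1 (-0.38, 0.00239). By complex, 2, 6, 9 and 13 members were lower. Without mouse MKL347 the count called was 4, and without MKL367 it was 9, with 31 and 32 called when the mouse was a block. Over all genes, calls without the block went from 1476 lower and 649 higher to 192 and 17 without MKL347. Without MKL367 they were 482 and 244.

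The Mex3a effect was not shown to differ between the Lgr5 states. The interaction called 0 of 45 members (limma, smallest adjusted p 0.99997), and the block called 0 as well. Either fit called 0 of all genes, so the 0 is not particular to the members. At an unadjusted p under 0.05 there were 0 members, against 2.85% of all genes. The effect in Lgr5+ minus that in Lgr5- cells was positive in 40 of 45 members, against 57.2% of all genes. Its median was 0.12, against 0.029 over all genes. Between Mex3a+ Lgr5+ and Mex3a- Lgr5- cells, which share arrays with the comparisons above, 28 members were lower, 1 higher (Cox6b2) and 16 did not pass, against 11.3% of all genes called lower. The median was -0.30. The smallest p-values there were those of Cyc1 (-0.57, adjusted p = 0.000275) and Cox6a1 (-0.36, 0.000689). Without mouse MKL347 the count of members called in this comparison was 3, and without MKL367 it was 7, with 32 and 28 in the block fit. Over all genes, calls without the block went from 1423 lower and 976 higher to 236 and 99 without MKL347. Without MKL367 they were 591 and 428.

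Lgr5 status by itself gave no called member. Between Lgr5+ and Lgr5- cells over both Mex3a states, 0 of 45 members passed limma's test, against 0.0397% of all genes in either direction. An unadjusted p under 0.05 was found in 0 members, against 6.22% of all genes. With the block 0 members passed, against 1.80% of all genes. The median difference was -0.0083, and the members ran from -0.20 (Cox7a1) to 0.20 (Cox6b2). Lgr5 itself differed by 1.55 (SE 0.14, adjusted p = 0.000872). Among Mex3a+ cells 34 of 45 members were higher in Lgr5+ cells, against 58.5% of all genes, with a median of 0.033, against 0.025 over all genes. Among Mex3a- cells 39 of 45 were lower in Lgr5+ cells, against 51.5% of all genes, with a median of -0.075, against -0.0052 over all genes. Of the members, 9 had all 3 Mex3a- Lgr5+ arrays below all 3 Mex3a- Lgr5- arrays, as did 5.57% of all genes. Neither comparison called a member. Over all genes, 0 were called among Mex3a+ cells, and 1 lower and 3 higher among Mex3a- cells. Among Mex3a+ cells 0 members had an unadjusted p under 0.05, against 2.99% of all genes. Among Mex3a- cells only Atp5pb did (-0.26, limma adjusted p = 0.790), against 6.23% of all genes.

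Other genes of mitochondrial energy supply were lower in Mex3a+ cells too. Of 35 complex I subunits 26 were lower and 0 higher (median -0.32), among them Ndufa9, needed to join the arms of the complex (-0.58, adjusted p = 7.05e-05). Of 30 assembly factors for complexes II to V, 12 were lower and 0 higher (median -0.20), among them Cox10, which makes a haem precursor for complex IV (-0.59, 0.00132). Of 12 genes for electron carriers and ubiquinone synthesis 5 were lower and 0 higher (median -0.23). Cycs, cytochrome c itself, fell by 0.40 (0.000144). Of 16 genes of the citric acid cycle and pyruvate dehydrogenase 11 were lower and 0 higher (median -0.28), with Suclg1, of the step before complex II, at -0.67 (0.000184) and citrate synthase Cs at -0.17 (0.0156).

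Of 73 mitochondrial ribosomal proteins 45 were lower and 1 higher (median -0.30), and of 9 import and chaperone genes 6 were lower and 0 higher (median -0.28), with Tomm20 of the outer membrane translocase at -0.31 (adjusted p = 0.0256). The carriers that feed complex V were mixed, with 5 of 7 lower and 1 higher. The ADP/ATP carrier Slc25a4, the form of heart and muscle, rose by 0.69 (0.00164), while the carrier of dividing cells, Slc25a5, differed by -0.25 (0.00295). The outer membrane channels Vdac1 and Vdac2 differed by -0.10 (0.0350) and -0.33 (0.000733).

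Of 14 regulators of mitochondrial biogenesis 6 were lower and 0 higher (median -0.17). Ppargc1b, a coactivator of oxidative genes, fell by 1.51 (adjusted p = 0.000731), and Esrra, its partner that binds the ERRA motif, fell by 0.49 (0.00137). Tfam, which packs and transcribes mitochondrial DNA, did not pass (-0.042, SE 0.096, adjusted p = 0.783), and Ppargc1a, whose probe sets carry several symbols, was not tested. Of 7 hypoxia-linked mitochondrial genes 4 were lower and 1 higher. Higd1a, which binds complexes III and IV, fell by 0.66 (0.000378), and Bnip3, a mitophagy receptor, was higher by 0.49 (0.0241). Between Lgr5+ and Lgr5- cells, 0 genes of these 9 lists were called without the mouse block. With it, the assembly factor of complex II Sdhaf1 was higher (0.26, adjusted p = 0.0368) and Bnip3 lower (-0.39, 0.0115).

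The block moved some counts of these lists in the Mex3a comparison, where it called 25.3% of all genes lower and 15.9% higher. It called 9 of 12 electron carrier and ubiquinone genes lower, 18 of 30 assembly factors lower and 1 higher, and 9 of 9 import genes lower. It called 28 complex I subunits, 59 mitochondrial ribosomal proteins, 12 citric acid cycle genes and 7 biogenesis regulators lower, with 1 ribosomal protein higher. Counts for the carriers that feed complex V and for the hypoxia-linked genes were as without it.

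Markers of differentiated cells were lower in Mex3a+ cells, as the subunit genes were. All 12 tested colonocyte markers passed the Mex3a comparison, 11 lower and 1 higher in Mex3a+ cells, and their mean log2 signal was 5.90 to 6.99 on Mex3a+ arrays and 7.87 to 9.17 on Mex3a- arrays. All 9 goblet cell markers were lower, with a mean of 7.14 to 7.81 on Mex3a+ arrays and 8.70 to 9.97 on Mex3a- arrays. Of 8 epithelial markers 7 were lower, with a mean of 10.4 to 10.7 on Mex3a+ arrays and 10.8 to 11.1 on Mex3a- arrays. Of 6 crypt base stem cell markers tested 4 were higher and 2 had a negative difference. The mean level was 7.14 to 7.70 on Mex3a+ arrays and 6.61 to 7.44 on Mex3a- arrays. With the block, the stem cell marker Rgmb was lower (-0.34, adjusted p = 0.00959). The part of these marker lists in the result was not tested. Between Lgr5+ and Lgr5- cells all 12 colonocyte markers had a negative difference (median -0.57), with 1 called and 6 with the block. The members had a median of -0.0083 and 0 calls in this comparison, which averages over the Mex3a states. Within the Mex3a- state, 39 of 45 members were lower in Lgr5+ than in Lgr5- cells (median -0.075, all genes -0.0052). Within the Mex3a+ state, 34 were higher in Lgr5+ than in Lgr5- cells (median 0.033, all genes 0.025). Whether the members follow the colonocyte markers was not tested. In the Mex3a comparison, calls among the other lists were 0 of 8 for fibroblasts and smooth muscle, 1 of 7 lower for endothelium and 2 of 6 lower for myeloid cells. They were 1 of 4 lower for neutrophils, 0 of 4 for lymphocytes and 0 of 1 for adipocytes. The shares of all genes were 17.3% lower and 9.91% higher, or 25.3% and 15.9% with the block. With the block, 3 of 4 neutrophil markers were lower (median -0.84), with a mean level of 4.89 to 5.99 on Mex3a+ arrays and 5.15 to 7.24 on Mex3a- arrays. The block also called Acta2 of smooth muscle higher (0.42, adjusted p = 0.0179), and Cdh5 of endothelium higher (0.30, 0.0458).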

How the data were processed

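RNA from 12 sorted pools (4 populations, 3 mice) was measured on Affymetrix arrays. Per the submitters' processing notes, the authors made the deposited log2 signals by RMA (further details: not given in the sources used here). The values were used as deposited. The array's 45141 probe sets had 1 gene symbol (28898), several (551) or none (15692) in GEO's platform annotation, and those with 1 were used. Each gene was read on the probe set with the highest mean, and genes above the 40th percentile of all values (4.40) on at least 3 arrays were tested (12595 of 17097).

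The fit used limma 3.58.1 (R 4.3.3) with a mean for each population on the 12 arrays together, eBayes with trend, two-sided tests and Benjamini-Hochberg adjustment over all genes tested. The code was tested on simulated data. Mouse was not in this fit and entered as a block in an alternative. The sample titles give the mouse, so arrays with a number came from the same animal. In their deviations from the population means, 18 same-mouse pairs of arrays correlated at 0.349 to 0.694, and 48 other pairs at -0.691 to 0.152. Deviations within a population cancel, which lowers the values of the other pairs. The pools of MKL358 also held fewer cells, so mouse and pool size cannot be told apart for it. The median standard error of the members' Mex3a difference was 0.0561, and 0.0413 with the block. The number of arrays limits the precision.

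Other alternatives were the filter, normalization, probe set choice, trend, array weights, and leaving out a mouse or an array; those joining the block with a left-out mouse were added after the data were seen. The members given in full were the 2 with the smallest p in each complex, those that did not pass or rose, tissue-restricted forms, and up to 8 called in other comparisons. Members, lists and this rule were chosen with earlier results of these data known. All 46 members matched RefSeq by gene ID. Figures used matplotlib 3.10.9 (Python 3.11.15).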

Additional observations from a re-analysis of the deposited data

Results flagged for a closer look

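In 8 members the Lgr5 difference was positive in all 3 mice among Mex3a+ cells and negative in all 3 mice among Mex3a- cells. They were picked by these signs, and the share of all genes with this pattern was not counted. The Lgr5 effect in Mex3a+ minus that in Mex3a- cells was 0.27 for Uqcrb, 0.17 for Cox6b1, 0.16 for Cox7c, 0.15 for Cox6c, 0.15 for Atp5d, 0.14 for Uqcrq, 0.14 for Atp5j2 and 0.13 for Cox4i1 on the log2 scale. Uqcrb differed between Lgr5+ and Lgr5- cells by 0.16 among Mex3a+ cells and by -0.12 among Mex3a- cells. Limma's interaction test of these differences passed for none of the 8 (adjusted p = 0.99997 for each; 0.484 to 0.648 with the mouse as a block).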

How the results depend on the processing

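With the mouse as a block, which follows the pairing of arrays by animal, 32 members were called for the Mex3a effect in Lgr5+ cells, against 16 without it. Over both Lgr5 states the block called 39, against 34, adding Sdha, Uqcr10, Uqcrc2, Cox7c and Atp5g2, and ended no call. The count in Lgr5+ cells was 9 after further quantile normalization, 9 without the intensity trend and 25 with array weights. Leaving out a mouse or an array gave 22 to 36 calls over both Lgr5 states, 0 to 17 in Lgr5+ cells (19 to 25 with the block and a mouse left out), 4 to 32 in Lgr5- cells and 3 to 29 between Mex3a+ Lgr5+ and Mex3a- Lgr5- cells. The cause was not tested, and a fit without a mouse has fewer arrays. Calls over all genes fell too in these Mex3a comparisons without MKL347 or MKL367. The median Mex3a difference of the members was -0.20 after quantile normalization and -0.32 to -0.26 without a mouse or an array. Over all genes, 2174 were lower and 1248 higher as deposited, 1670 and 1451 after quantile normalization, and 2533 and 1048 after median centring. The sign turned only in members that did not pass: Cox7a2l (0.030 after quantile normalization, -0.10 to 0.0019 with a mouse or an array left out), Atp5md (0.034 after quantile normalization, -0.069 to 0.016), Cox8c (-0.010 after median centring), Cox6a2 (-0.015 to 0.14) and Cox8b (-0.067 to 0.032; 0.021 and 0.025 without MKL358 and MKL367). The counts of 0 for Lgr5 status and for the interaction were 0 in every setting. Few genes of any kind were called there in the main fit: 5 of 12595 for Lgr5 status over both Mex3a states and 0 for the interaction.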
